A study of Mus musculus with 10 samples.

Results

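The interferon response and antigen presentation genes are a list of 39 genes: sensors of foreign RNA, the factors that pass on an interferon signal, the antiviral proteins that the signal induces, and the MHC class I molecules with the machinery that supplies them with peptides. A gene belonged to the list by its symbol, and all 63 probes that carry these symbols were taken, out of 25697 probes for 16593 genes on the array. Of the 39 genes, 31 had a probe that was detected on at least 2 of the 10 arrays and were tested; 8 had none (Ifih1, Oas1a, Oasl1, Ifit1, Mx1, Xaf1, Rtp4 and Psmb8), and nothing can be said here of their differences. Ifitm1 and Irf7 passed this filter through the pericyte arrays alone, so a difference was built into their selection.

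The study hybridised RNA of C57BL/6 mouse cells to 10 Illumina bead arrays, 2 for each of 5 groups. PC are pericytes, the cells that wrap capillaries; OPC are primary cells titled as oligodendrocyte progenitors, whose cell type label says oligodendrocyte; iOPC are progenitor-like cells induced from pericytes, harvested at passage 5, 15 or 25. The labels used here give no inducing factors, animal ages, cell sources or culture conditions, and do not say whether the 2 arrays of a group came from separate cultures, so the tests measure only the spread between these arrays. The OPC and the 3 iOPC groups are called the glial groups below.

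Interferons bind receptors at the cell surface, whose Janus kinases activate STAT proteins. STAT2 works in a complex with IRF9 that binds the interferon-stimulated response element (ISRE) in target promoters, while interferon gamma acts mainly through another element, the gamma-activated site (GAS). The induced proteins block steps of viral growth, and the same signal raises MHC class I, the surface molecule that shows peptides to T cells; cells of the oligodendrocyte lineage are known to carry little class I at rest and to raise it under interferon gamma.

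A table of signals with detection p-values and the authors' own table of normalized log2 values were both used, and most columns of the same name differed between them. Across the 9403 probes that all arrays detected, PC columns correlated between the tables at a mean r of 0.982, but OPC with OPC only at 0.847, passage 5 with passage 5 at 0.878, passage 15 with passage 15 at 0.843 and passage 25 with passage 25 at 0.866. The signal columns headed iOPC passage 15 correlated at 0.981 with the value columns headed OPC. Apart from this match and PC with PC, the highest correlation between the tables was 0.901, of signal passage 5 with value passage 25. The other glial columns of the signal table thus had no clear match under any value heading. Headings were kept as they stand and no column was reassigned. The comparison that needs only the PC heading, the mean of the 4 glial groups minus PC, therefore leads, and each comparison is given from both tables. Every group name in the results below means the columns with that heading in the table named. Between 45.7% and 49.2% of probes were detected per array, mean signals ran from 268.3 to 388.5, and replicates correlated at 0.995 to 0.997 in the signal table and at 0.908 (passage 5) to 0.995 in the value table.

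OPC markers separated the PC heading from the glial headings and did not settle which glial heading is which, and pericyte markers were split. All 7 tested OPC markers were higher in the glial groups in both tables, though 5 of them (Olig1, Olig2, Nkx2-2, Gpr17 and Bcan) passed the detection filter through glial arrays alone. The lineage factor Olig1 stood at 4.28 and 4.31 on the PC arrays and between 10.20 and 13.75 on the glial arrays of the signal table. Nkx2-2, another transcription factor of the lineage, was at 10.93 on both arrays headed passage 15 of the signal table and at 11.27 and 11.19 on those headed OPC of the value table, the highest of each table. Signals of Nkx2-2 under the headings OPC and passage 5 were not detected, nor were those of Olig2 under passages 5 and 25. In the value table Olig2 read 1.49 on passage 5 replicate 1, below PC (1.83 and 1.97). Of 10 pericyte markers 6 were detected on the PC arrays, and Rgs5, Des, Kcnj8 and Abcc9 were not. Of the 6 tested, 4 were lower in the glial groups in each table and 2 higher, Mcam (3.69 and 4.18) and Cspg4, the NG2 proteoglycan that OPCs carry too (3.73 and 4.18). The summed signal of the pericyte list was 3053 to 3154 in PC, 3622 to 4014 in OPC, 2954 to 3044 at passage 5, 1199 to 1257 at passage 15 and 2529 to 2548 at passage 25. That of the OPC list was 751 to 791 in PC, 5384 to 5442 in OPC and 7027 to 7132 at passage 5. It was 28633 to 29872 at passage 15, the only heading with all 7 markers detected, and 11182 to 12126 at passage 25. The astrocyte list also summed highest at passage 15 (6021 to 6205), against at most 2546 under any other heading.

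The promoters are shown first because the ISRE is the element that the STAT2 and IRF9 complex binds. RefSeq windows from 250 bases before to 50 after the start (GRCm38.p6) were available for 33 of the 39 genes. The ISRE core GAAANNGAAA, on either strand, occurred in 16 of the 33 (48.5%) and in 3.99% of 27025 genes; the GAS form TTCNNNGAA occurred in 8 of the 33 (24.2%) and in 9.55%. The 7 windows below were chosen among those that hold a core, for genes that carry the contrasts that follow; Oasl2, Irf9, H2-D1 and H2-K1, with contrasts of the same kinds, had no core in their windows. Of those shown, Isg15, Ifit3 and Gbp2 fell against pericytes in both tables, Gbp3 went opposite ways in the tables, Bst2 depended on the heading, and B2m and H2-T23 belong to class I. Capitals mark the ISRE core as read on the strand of the gene, so that a core on the other strand reads TTTCNNTTTC; a match describes the letters only and is no evidence of binding.
Isg15: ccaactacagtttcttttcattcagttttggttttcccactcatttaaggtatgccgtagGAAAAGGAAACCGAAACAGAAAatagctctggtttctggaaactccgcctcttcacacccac
Ifit3: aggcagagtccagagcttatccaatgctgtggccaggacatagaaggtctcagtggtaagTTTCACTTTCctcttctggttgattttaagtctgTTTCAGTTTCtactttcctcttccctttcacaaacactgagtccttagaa
Gbp2: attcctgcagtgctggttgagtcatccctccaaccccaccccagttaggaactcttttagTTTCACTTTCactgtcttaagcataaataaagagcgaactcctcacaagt
Gbp3: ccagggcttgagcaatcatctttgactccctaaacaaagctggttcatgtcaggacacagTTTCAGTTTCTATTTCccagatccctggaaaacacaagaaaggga
Bst2: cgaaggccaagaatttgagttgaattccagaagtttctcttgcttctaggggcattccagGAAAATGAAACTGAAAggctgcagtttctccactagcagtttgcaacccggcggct
B2m: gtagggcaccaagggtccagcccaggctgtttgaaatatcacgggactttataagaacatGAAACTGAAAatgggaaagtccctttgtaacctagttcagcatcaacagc
H2-T23: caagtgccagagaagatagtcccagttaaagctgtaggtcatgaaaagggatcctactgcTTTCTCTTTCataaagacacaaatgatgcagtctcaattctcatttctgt
The Isg15 stretch is chr4:156200835-156200956 on the minus strand, with 3 overlapping cores that begin at -78, -72 and -66 from the start. Ifit3 is shown at chr19:34583313-34583456 (plus), with cores at -156 and -122. The neighbouring genes Gbp2 and Gbp3 are shown at chr3:142620544-142620653 (plus, core at -59) and at chr3:142559939-142560043 (plus, overlapping cores at -45 and -39). Bst2 is shown at chr8:71537547-71537662 (minus, overlapping cores at -130 and -124), B2m at chr2:122147488-122147597 (plus, core at -139) and H2-T23 at chr17:36032776-36032885 (minus, core at -124). Gbp2 and Ifit3 both hold the form TTTCACTTTC.

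**Figure D1:**
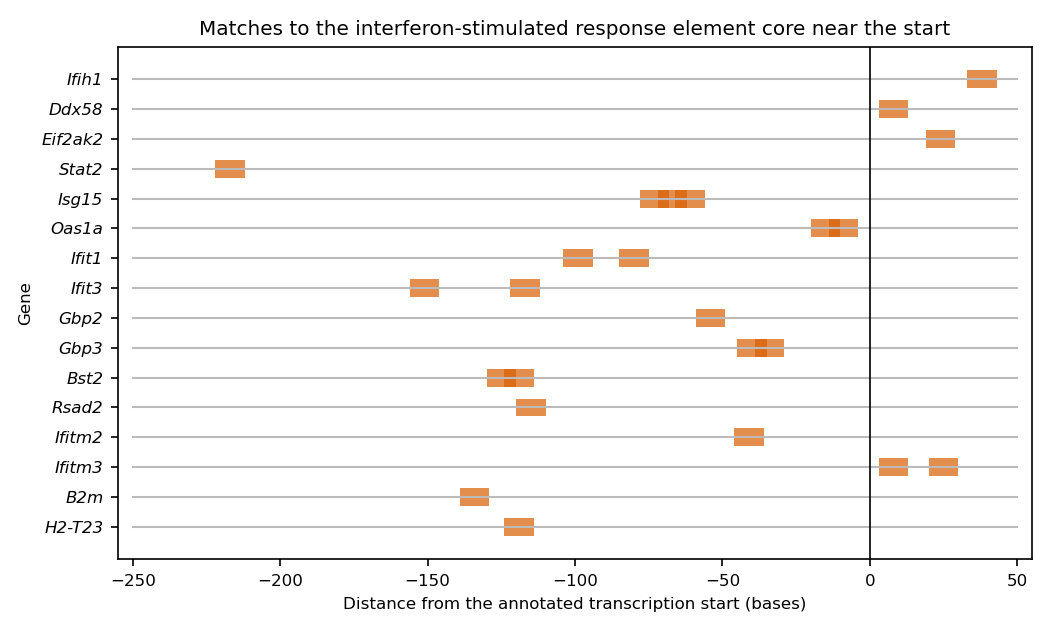
Positions of ISRE cores (boxes, darker where they overlap) in the promoter windows of the listed genes that hold one, by distance from the start in bases (x axis), 1 row per gene. ISRE cores occurred in 16 of the 33 genes with a window; the 3 overlapping cores of Isg15 lie between -78 and the start.

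Most of the interferon response genes were lower in the glial groups than in pericytes. By the signal table, 23 of the 31 tested genes were lower and 3 higher at an adjusted p under 0.05 (limma, adjusted over all 9778 tested genes), where 34.3% of all genes were lower and 41.8% higher. Their median log2 change was -0.81, against 0.08 over all genes. The value table had 22 lower and 4 higher, against 27% and 33.8% of all genes, with a median of -1.57 against 0.11. Lower in both tables were 20 of the 31, where 22.3% of all genes were, and Mx2 and Tap2 were higher in both, where 27.4% were. The tables share the PC profile and the profile headed passage 15 in the signal table and OPC in the value table. Counts over both tables are therefore not independent support. Without both signal arrays headed passage 15, Ifitm2 and H2-T23, lower in both tables, turned to 0.67 and 0.61 in the signal table. Gbp3 alone was called in opposite directions, as 2.97% of all genes were. All 8 glial arrays lay below both PC arrays for 14 of the 31 genes in the signal table and for 17 in the value table, against 20.9% and 20.5% of all genes. The same arrays lay above PC for 1 and 2 of the 31, against 21.7% and 24%. Mx2 was the gene above in both tables, with Rsad2 in the value table. Irf7 and Ifitm1 count among the lower genes of both tables. The filter fixed their direction in the signal table, and their value calls are a description too. Detection was measured in the signal table alone. It need not hold for the value columns, of which only those headed PC and OPC had a clear match there. Among the other 29 genes, 21 were lower in the signal table, 20 in the value table and 18 in both, where 38.8%, 29.5% and 24.2% of the 7930 genes detected on both PC and glial arrays were (a count added after seeing the data). All glial arrays lay below PC for 12 of the 29 and for 15, against 22.2% and 21.7%.

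**Figure D2:**
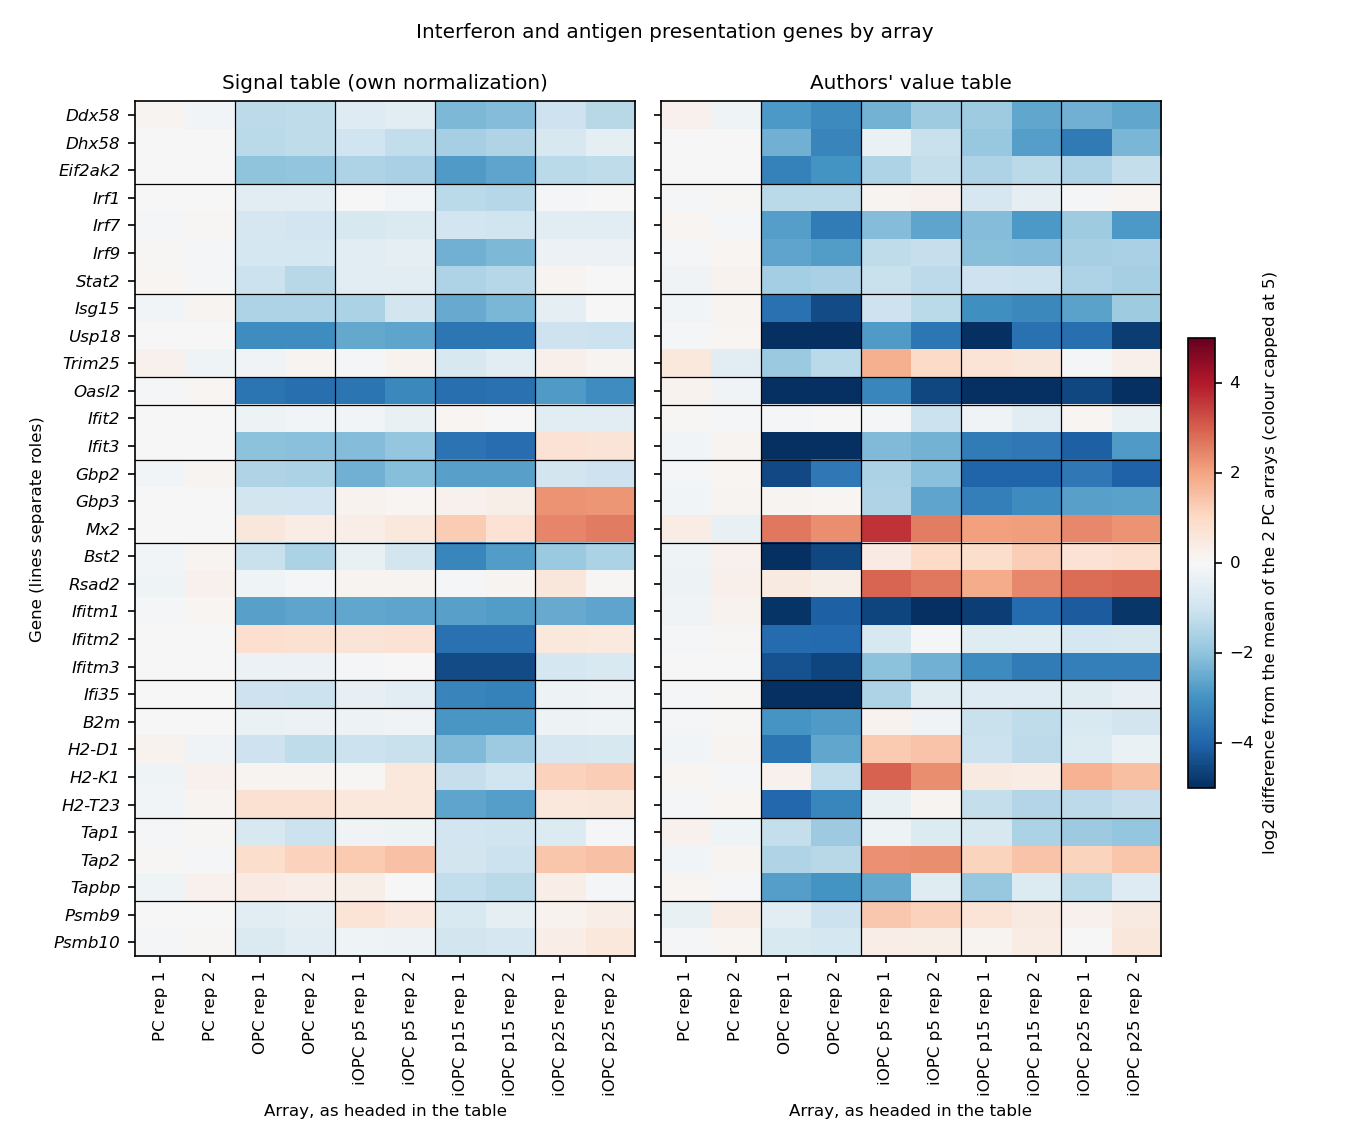
Log2 level of each tested gene on each array, relative to its mean on the 2 PC arrays, in the signal table (left) and the value table (right); rows are grouped by role, columns by heading. The lowest columns for class I genes are headed passage 15 on the left and OPC on the right.

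**Figure D3:**
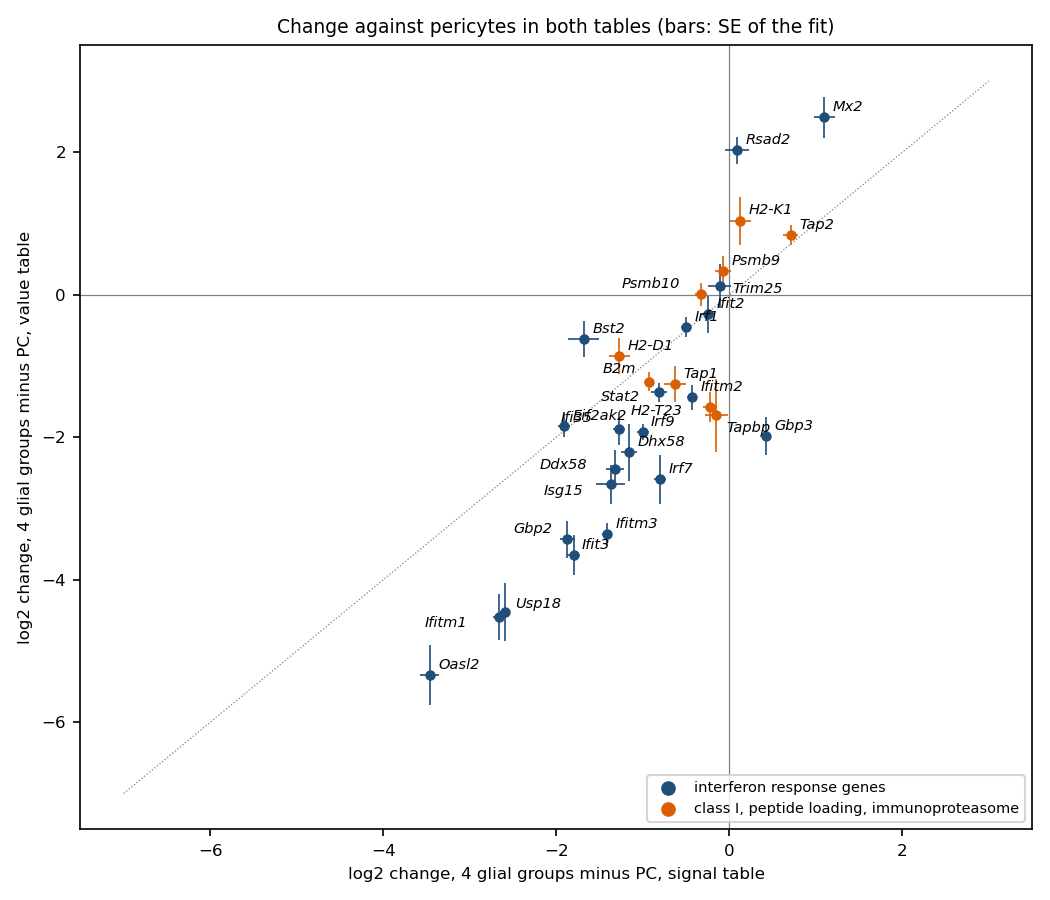
Log2 change of the mean of the 4 glial groups against PC in the signal table (x axis) and in the value table (y axis), 1 point per tested gene, with the SE of the fit as bars. Oasl2, at -3.46 and -5.34, lies farthest to the lower left, Ifitm1 and Irf7 were not well above background on any glial array of the signal table, and Gbp3 is the point to the right of 0 and well below it.

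The 3 tested sensors were lower in both tables. Eif2ak2 encodes PKR, a kinase that binds double-stranded RNA and stops translation. Its signal level was 8.93 and 8.99 on the PC arrays and 6.12, 7.15 and 7.69 as lowest, median and highest of the 8 glial arrays. The groups did not overlap, and the log2 change was -1.91 (SE 0.07, limma adjusted p = 1.72e-09), with -1.84 in the value table (SE 0.16, adjusted p = 3.73e-05). Ddx58 encodes RIG-I, the sensor of viral RNA ends. It stood at 7.09 and 6.83 on the PC arrays and at 4.70, 5.68 and 6.41 on the glial arrays, again without overlap. Its change was -1.32 (SE 0.10, adjusted p = 5.1e-07) and -2.44 in the value table (SE 0.26, adjusted p = 0.000105). Dhx58, which encodes the related helicase LGP2, stood at 5.82 and 5.81 in PC and at 4.16, 4.57 and 5.32 on the glial arrays. It changed by -1.16 and -2.21, and only 5 of the 10 arrays detected it. The fourth sensor, Ifih1 (MDA5), was detected on 1 PC array alone.

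Of the signalling factors Irf9, Stat2 and Irf1 were lower in both tables. Irf9 encodes the part of the complex with STAT2 that reads the ISRE. Its signal level was 8.17 and 8.05 in PC and 5.71, 7.40 and 7.83 on the glial arrays, with no overlap. It changed by -1.0 (SE 0.07, adjusted p = 2.28e-07) and by -1.93 in the value table (SE 0.11, adjusted p = 3.65e-06). Stat2, its partner, stood at 6.44 and 6.27 in PC and at 4.80, 5.52 and 6.48 on the glial arrays. It changed by -0.81 and -1.37, and the signal groups overlapped at the arrays headed passage 25, which read 6.48 and 6.36. Irf7, the factor that amplifies type I interferon production, was detected on the PC arrays only (5.11 and 5.24) and was tested only because of them; it was at least 1.268-fold lower in the glial groups, and the value table gave -2.59. Irf1, which acts mainly downstream of interferon gamma, changed by -0.50 and -0.45, and 2 of its 4 probes missed the threshold in the signal table (-0.14 and -0.15). The same 2 probes missed it in the value table, at -1.0 and -1.05 (limma adjusted p = 0.0713 and 0.088). The remaining probe gave -1.08 there, a larger fall than the -0.45 of the probe used.

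Of the ISG15 system, Isg15 and Usp18 were lower in both tables and Trim25 in neither. Usp18 encodes the protease that removes ISG15 from proteins and also damps the type I interferon receptor. In the signal table it stood at 7.82 and 7.80 in PC, at 4.70 and 4.72 in OPC, at 5.26 and 5.16 at passage 5, at 4.21 and 4.21 at passage 15 and at 6.79 and 6.75 at passage 25. Every glial array was below PC, passage 25 least so, and the change was -2.59 (SE 0.06, adjusted p = 4.27e-11). Isg15, a ubiquitin-like protein that is joined to other proteins in an interferon response, read 7.01 and 7.29 in PC and 4.62, 5.60 and 7.14 as lowest, median and highest glial array. It changed by -1.37 (SE 0.17, adjusted p = 2.64e-05), and only a passage 25 array reached the PC range. By the value table Usp18 changed by -4.45 and Isg15 by -2.66, both without overlap. Trim25, the ubiquitin ligase of the RIG-I pathway, read 5.47 and 5.07 in PC and between 4.48 and 5.54 on the glial arrays, a change of -0.11 (adjusted p = 0.45), with 0.12 in the value table.

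Oasl2 had the largest fitted fall of the tested genes in both tables. It encodes a protein of the antiviral oligoadenylate synthetase family. The signal level was 7.98 and 8.14 in PC and 4.28, 4.42 and 5.23 as lowest, median and highest glial array. It was detected on only 3 of the 8 glial arrays, and the change was -3.46 (SE 0.11, adjusted p = 6.5e-10); the value table gave -5.34 (SE 0.42, adjusted p = 1.89e-05). Oas1a and Oasl1 were not tested.

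The 2 tested IFIT genes, of a family of interferon-induced antiviral proteins, behaved differently. Ifit3 read 8.31 on both PC arrays of the signal table, 6.26 and 6.22 in OPC, 6.14 and 6.36 at passage 5, 4.63 and 4.49 at passage 15 and 9.05 and 8.97 at passage 25. It was thus lower under 3 headings and higher under the fourth, and the mean change was -1.80 (SE 0.07, adjusted p = 4.78e-09). Its value levels were 8.32 and 8.62 in PC and between 3.09 and 6.28 on the glial arrays, with no heading above PC and a change of -3.65 (SE 0.28, adjusted p = 1.67e-05). Ifit2 read 7.87 and 7.92 in PC and 7.32 to 7.99 on the glial arrays. Its change of -0.24 passed in the signal table (adjusted p = 0.0168), and that of -0.27 in the value table did not (adjusted p = 0.399).

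The GTPases moved in different directions. Gbp2, a guanylate-binding protein of the response to interferon gamma, read 6.90 and 7.19 in PC and 4.32, 5.20 and 6.14 as lowest, median and highest glial array. It changed by -1.87 (SE 0.09, adjusted p = 1.99e-08) and by -3.43 in the value table (SE 0.26, adjusted p = 1.47e-05), without overlap in either. Mx2, a dynamin-like antiviral GTPase, rose. It read 4.93 and 4.92 in PC, 5.49 and 5.29 in OPC, 5.26 and 5.44 at passage 5, 6.19 and 5.66 at passage 15 and 7.35 and 7.52 at passage 25. All glial arrays were above PC, passage 25 farthest, and the change was 1.10 (SE 0.12, adjusted p = 1.42e-05). Only 1 PC array detected Mx2, at the edge of background, which limits the size of this change. In the value table Mx2 rose by 2.49 (SE 0.29, adjusted p = 0.000181), with PC at 3.59 and 2.82 and the glial arrays between 5.24 and 6.82.

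Gbp3, the neighbour of Gbp2, was called higher in the signal table (0.42, SE 0.06, adjusted p = 0.000101) and lower in the value table (-1.98, SE 0.27, adjusted p = 0.000387). The signal levels were 7.08 and 7.15 in PC, 6.19 and 6.16 in OPC, 7.30 and 7.21 at passage 5, 7.32 and 7.40 at passage 15 and 9.36 and 9.32 at passage 25. The arrays headed passage 25 were far above PC, those headed OPC below it. The value levels were 6.95 and 7.21 in PC, 7.20 and 7.19 in OPC, 5.59 and 4.44 at passage 5, 3.68 and 3.95 at passage 15 and 4.38 and 4.39 at passage 25, so that all iOPC columns were below PC and the OPC columns at its level. A further Gbp3 probe gave 0.46 and -1.65, so the opposite signs did not rest on 1 probe. Mx1 was not detected on any array.

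**Figure D4:**
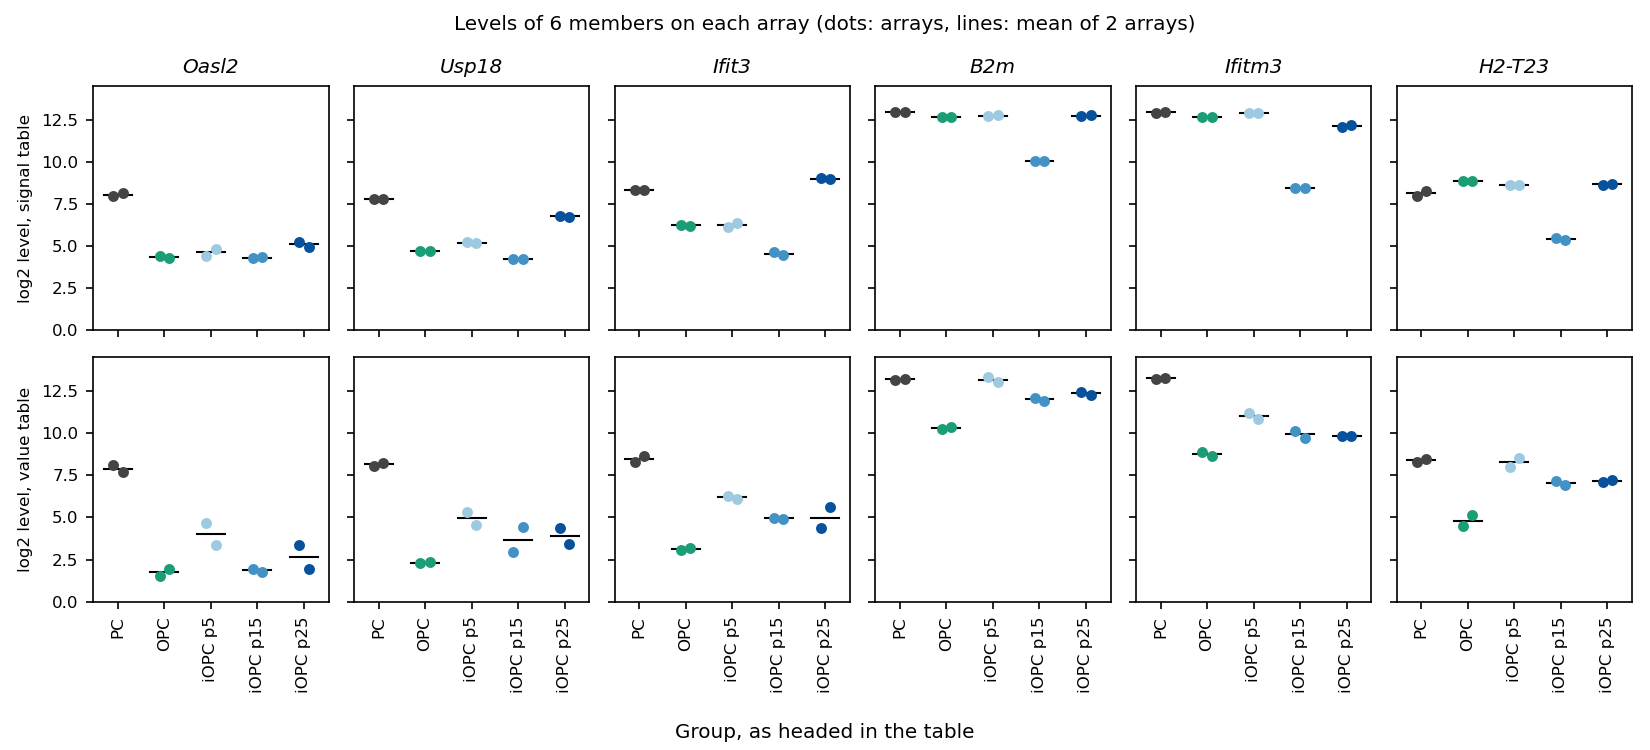
Log2 levels of selected genes on each of the 10 arrays, in both tables, by heading; each point is 1 array. Ifit3 stands highest under passage 25 in the signal table (9.05 and 8.97) and not in the value table.

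The membrane effectors differed among themselves. The IFITM proteins sit in endosomal membranes and hinder the entry of viruses. Ifitm1 read 6.82 and 7.01 on the PC arrays and was not well above background on any of the 8 glial arrays, so it was at least 4.244-fold lower there, with -4.52 in the value table; it was tested only because of the PC arrays, and these values are a description. Bst2, tetherin, which holds budding virus at the cell surface, read 7.53 and 7.78 in PC, 6.55 and 6.07 in OPC, 7.28 and 6.73 at passage 5, 4.38 and 4.85 at passage 15 and 5.80 and 6.08 at passage 25. All glial arrays were below PC, passage 15 most, and the change was -1.68 (SE 0.18, adjusted p = 8.63e-06). The value columns showed Bst2 low under OPC alone (2.33 and 3.16), the iOPC columns read 8.13 to 8.96 against 7.53 and 7.93 in PC, and the mean change of -0.62 did not pass (adjusted p = 0.0629).

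Ifitm3 is the family member best known for restricting influenza virus. It read 12.91 and 12.96 in PC, 12.65 and 12.64 in OPC, 12.89 and 12.91 at passage 5, 8.47 and 8.47 at passage 15 and 12.06 and 12.16 at passage 25. The drop was thus deep under the heading passage 15 and slight elsewhere, for a mean change of -1.41 (SE 0.06, adjusted p = 4.91e-09). The value table gave -3.36 (SE 0.15, adjusted p = 9.08e-07), with PC at 13.22 and 13.29 and the glial arrays between 8.67 and 11.20. Ifitm2 changed by -0.43 and -1.44, and its signal change rested on the arrays headed passage 15: without both of them it was 0.67. Rsad2, viperin, changed by 0.09 in the signal table, where 5 arrays detected it (adjusted p = 0.581), and rose by 2.03 in the value table (adjusted p = 5.27e-05). Ifi35, an interferon-induced leucine zipper protein, was lower in both (-1.27 and -1.88), without overlap in either. The probes of Ifitm1, Ifitm2 and Ifitm3, of Gbp2 and Gbp3 and of the class I genes target close paralogs, and what else they read was not checked here.

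For class I, the light chain and H2-D1 were lower in both tables. B2m encodes beta-2 microglobulin, the light chain that every class I molecule needs. It read 12.96 and 12.97 in PC, 12.65 and 12.66 in OPC, 12.71 and 12.77 at passage 5, 10.04 and 10.04 at passage 15 and 12.71 and 12.75 at passage 25. All glial arrays were below PC, passage 15 by far the most, and the change was -0.93 (SE 0.06, adjusted p = 1.06e-07). By the value table B2m changed by -1.22 (SE 0.13, adjusted p = 9.47e-05), with OPC at 10.26 and 10.37 passage 5 at 13.35 and 13.02 and PC at 13.15 and 13.23, so that passage 5 lay on either side of PC. H2-D1, a classical heavy chain, read 6.85 and 6.47 in PC and 4.46, 5.58 and 5.84 as lowest, median and highest glial array. It changed by -1.27 (SE 0.12, adjusted p = 4.33e-06), and by -0.86 in the value table (SE 0.25, adjusted p = 0.0197), where the groups overlapped. That call was lost without both value columns headed OPC (-0.10) and without both headed passage 15 (-0.75).

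H2-T23, the mouse Qa-1 molecule that engages receptors of natural killer cells, depended on the heading. It read 7.98 and 8.27 in PC, 8.87 and 8.88 in OPC, 8.64 and 8.65 at passage 5, 5.50 and 5.39 at passage 15 and 8.65 and 8.68 at passage 25. Only passage 15 was below PC, the mean change was -0.22 (SE 0.08, adjusted p = 0.0272), and without both passage 15 arrays it was 0.61. The value table gave -1.57 (SE 0.21, adjusted p = 0.000375), with OPC lowest at 4.47 and 5.12. H2-K1, the other classical heavy chain, changed by 0.13 in the signal table (adjusted p = 0.342) and by 1.04 in the value table (adjusted p = 0.0292); its other probe, detected on glial arrays alone, gave 0.29 and 0.01.

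The peptide transporter did not move as a unit. TAP1 and TAP2 together carry peptides into the endoplasmic reticulum. Tap1 read 5.85 and 5.94 in PC and 4.81, 5.15 and 5.80 as lowest, median and highest glial array, and changed by -0.63 (SE 0.13, adjusted p = 0.00116) and -1.25 (SE 0.25, adjusted p = 0.00346), without overlap in either table. Tap2 read 6.50 and 6.42 in PC, 7.33 and 7.61 in OPC, 7.76 and 7.92 at passage 5, 5.54 and 5.38 at passage 15 and 7.86 and 7.94 at passage 25. It was above PC under every heading but passage 15, for a change of 0.71 (SE 0.09, adjusted p = 2.91e-05), with 0.84 in the value table (SE 0.14, adjusted p = 0.00135), where OPC was the exception (4.95 and 5.07 against 6.34 and 6.58 in PC). Tapbp, tapasin, which bridges the transporter to class I, changed by -0.15 in the signal table (adjusted p = 0.325) and by -1.69 in the value table (adjusted p = 0.0207). A further Tapbp probe passed in the other direction in the signal table (0.26).

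The immunoproteasome subunits replace constitutive subunits of the proteasome under interferon. They changed little in the mean of the glial groups, within which headings went opposite ways. Psmb10 read 8.62 and 8.72 in PC and 7.74 to 9.20 on the glial arrays, a change of -0.33 (SE 0.07, adjusted p = 0.00178), with 0.01 in the value table (adjusted p = 0.961). Psmb9 read 6.16 and 6.21 in PC and 5.43 to 6.88 on the glial arrays; its changes of -0.07 and 0.33 did not pass (adjusted p = 0.468 and 0.237). By heading, Psmb9 in the value table changed by 1.25 at passage 5 (limma adjusted p = 0.00674) and by -0.82 in OPC (adjusted p = 0.0383). In iOPC against OPC, Psmb9 (0.59 and 1.53) and Psmb10 (0.42 and 1.12) were called higher in both tables. Psmb8 was detected on 1 passage 5 array only. Of the 3 constitutive counterparts Psmb5, Psmb6 and Psmb7, only Psmb6 passed, at 0.19 in the signal table.

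One profile was present in both tables under different headings: passage 15 in the signal table and OPC in the value table. Because the columns matched over the probes that all arrays detected, their values are given as a description. They are not 2 separate measurements of a group. Against PC 27 of the 31 genes were lower in the signal columns and 26 in the value columns, beside 33.7% and 25.8% of all genes, and 26 were lower in both. Higher were 2 and 1, beside 40.3% and 30.6%. Mx2 was the only gene higher in both. The median changes were -2.0 and -2.88. Class I and the abundant membrane effectors took part in the fall: Ifitm3 changed by -4.47 in each table, Ifitm2 by -3.73 and -3.86, B2m by -2.93 and -2.88 and H2-T23 by -2.68 and -3.59. Ifit2 (0.06 and -0.02) and Rsad2 (0.04 and 0.36) did not pass in either table.

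**Figure D5:**
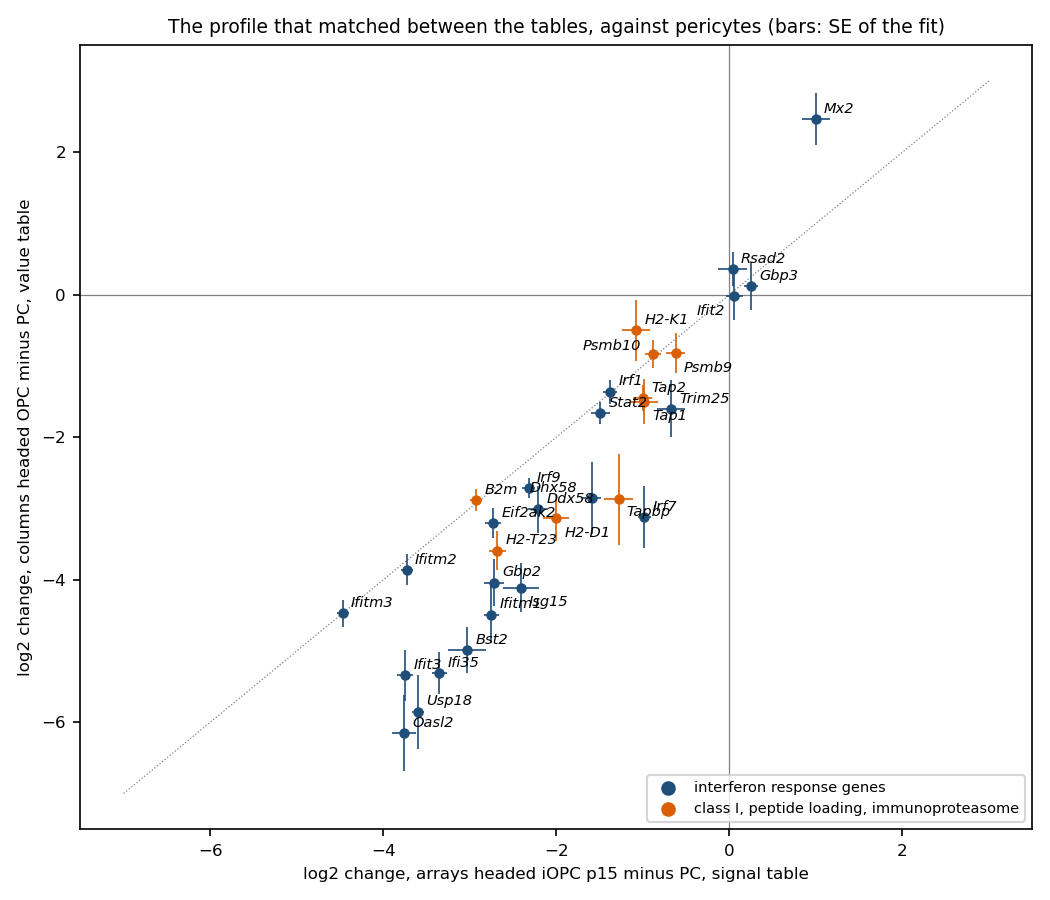
Log2 change against PC of the signal columns headed passage 15 (x axis) and of the value columns headed OPC (y axis), 1 point per tested gene, with a line at equal change. Ifitm3 lies at -4.47 on both axes, and Mx2 is the only gene called higher in both.

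Under the other headings the fall was shallower and less uniform, and all these comparisons share the 2 PC arrays. In the signal table OPC had 22 of 31 genes lower than PC and 4 higher (Mx2, Ifitm2, H2-T23 and Tap2), where 32.8% and 35% of all genes were, with a median of -0.89. Passage 5 had 18 lower and 5 higher (30.7% and 35.8% of all genes) with a median of -0.25. Passage 25 had 15 lower and 8 higher (35.7% and 36.8%) with a median of -0.24. The genes higher at passage 25 included Ifit3 (0.70), Gbp3 (2.23), Mx2 (2.51), H2-K1 (1.19) and Tap2 (1.44). Oasl2 (-2.96) and Eif2ak2 (-1.31) stayed lower there, Usp18 fell by 1.04, and Isg15 at -0.25 did not pass. The value columns of passages 5, 15 and 25 had 14, 20 and 18 genes lower than PC and 7, 4 and 4 higher, where 24.1%, 24.5% and 24.3% of all genes were lower and 30.2%, 29% and 29.1% higher. Higher at all 3 of these value headings were Mx2, Rsad2 and Tap2.

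The mean of the 3 iOPC groups was set against PC, the cells they were made from. It had 23 of 31 genes lower and 3 higher in the signal table (34.1% and 42.3% of all genes, median -0.84) and 19 lower and 6 higher in the value table (26.8% and 33%, median -1.17). Oasl2 changed by -3.38 and -5.07, Usp18 by -2.42 and -3.99 and Ifit3 by -1.70 and -3.09. The tables differed for Bst2, which was lower in the first (-1.80, adjusted p = 6.63e-06) and higher in the second (0.83, adjusted p = 0.0246), and for Gbp3 (0.87 and -2.68). Without both signal arrays headed passage 15, 7 genes rather than 3 were higher.

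Set against OPC, the iOPC groups did not differ in 1 direction in the signal table and were mostly higher in the value table. With signals, 9 of 31 genes were higher and 9 lower, where 31.2% and 25.6% of all genes were, with a median of 0.03. Higher were Gbp3 (1.81), Mx2 (0.85), Psmb9 (0.59) and Usp18, which was not detected on the OPC arrays and was at least 1.51-fold higher, and lower Ifitm2 (-1.64), Ifitm3 (-1.48), H2-T23 (-1.29) and B2m (-0.82). Without both arrays headed passage 15, 19 genes were higher and 1 lower. The value columns had 23 higher and 1 lower, where 28.4% and 26.9% of all genes were, with a median of 1.53. Bst2 (5.82), Ifi35 (4.57), Ifitm2 (3.23), Tap2 (3.06) and H2-D1 (3.03) led, and Gbp3 (-2.79) was the gene that was lower. The single lower gene became 2 without passage 5 replicate 1. The value columns headed OPC are those that matched passage 15 of the signal table, so these comparisons set different profiles against each other in the 2 tables.

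Change with passage also depended on the table. With signals, 25 of 31 genes were lower at passage 15 than at passage 5 and 2 higher (30.2% and 32.6% of all genes, median -1.14). From passage 15 to passage 25 28 were higher and 1 lower (33.5% and 38.3%, median 1.43). On the passage 15 arrays 11 of the 31 were not detected, Ifit3, Usp18, Gbp2, Ifi35 and H2-K1 among them, so the sizes of their steps to and from passage 15 are bounds: Ifit3 was at least 2.756-fold lower than at passage 5 and at least 18.7-fold lower than at passage 25. Irf7 was called in all 3 steps although no iOPC array detected it. Between passages 5 and 25 themselves 15 were higher and 6 lower (26.4% and 29.4%, median 0.21). The lower count became 3 without passage 5 replicate 1 or passage 25 replicate 1. From passage 5 to 25 Ifit3 rose by 2.76 (SE 0.09, adjusted p = 5.62e-09), Gbp3 by 2.08, Mx2 by 2.08, Usp18 by 1.56 and Gbp2 by 1.29, while Bst2 fell by 1.06 and Ifitm3 by 0.78. An F test over the 3 passages called 29 of 31, all but Rsad2 and Ifitm1, where 81.4% of all genes were called.

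In the value table limma called 0 of the 31 genes higher at a later passage. From passage 5 to 15, 11 were lower and 0 higher, where 6.67% and 3.65% of all genes were. From passage 5 to 25, 8 were lower and 0 higher, where 5.55% and 3.35% were. From passage 15 to 25, 0 were called in either direction, where 0.0102% of all genes were lower and 0.112% higher. At an unadjusted p under 0.05 the first 2 steps had 0 genes higher, where 12.2% and 11% of all genes were, with 18 and 15 lower, where 17.8% and 15.2% were. The last step had 5 higher and 1 lower, where 6.41% and 4.25% were. H2-D1 fell by 2.54 from passage 5 to 15 and by 1.86 from passage 5 to 25, and Gbp2 by 2.17 and 1.96. B2m fell by 1.18 and 0.83 and Ifitm3 by 1.10 and 1.19. The 8 genes lower at passage 25 became 1 without passage 25 replicate 1, 3 without passage 25 replicate 2, 4 without either PC array and 5 without either OPC array. The F test called 10 of 31 (8.94% of all genes): Irf1, Irf9, Isg15, Gbp2, Ifitm3, B2m, H2-D1, H2-K1, H2-T23 and Tap2. That count ran from 4 without passage 5 replicate 1 to 15 without passage 5 replicate 2, the pair of arrays with the lowest replicate correlation, and was 5 or 6 without passage 15 replicate 1 or 2 and 6 without either PC array.

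Upstream of these genes, no interferon was detected on the PC arrays. Of 11 ligand genes 7 had a probe, and only Ifna1 was detected at all, on 2 glial arrays. Of 10 tested receptor, kinase and feedback genes, 3 were lower and 5 higher in the glial groups in the signal table, where 34.3% and 41.8% of all genes were, and 2 and 2 in the value table, where 27% and 33.8% were; the lists that follow are to be read against the same shares. Ifngr1 and Ifngr2, the chains of the interferon gamma receptor, changed by -1.18 and -0.49 in the signal table; in the value table Ifngr1 at -0.49 did not pass (adjusted p = 0.0529) and Ifngr2 fell by 1.52. Ifnar2, a chain of the type I receptor, rose by 0.76 in the signal table, and its 0.46 in the value table did not pass (adjusted p = 0.17). Il10rb, shared by the interleukin 10 and interferon lambda receptors, changed by -1.63 and -0.87. The kinase Jak2 rose by 1.08 and 1.37 and the transcription factor Stat3 by 1.73 and 1.14.

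Among 12 tested genes of interferon induction 7 were lower in each table, and 2 and 0 higher; 1 of the lower genes, Irf5, was detected on PC arrays alone. Myd88, the adaptor of Toll-like receptors, changed by -1.10 and -1.50, Tlr4, the receptor of bacterial lipopolysaccharide, by -1.13 and -2.23, and Mavs, the mitochondrial adaptor of RIG-I, by -1.08 and -0.72. Irf8 went opposite ways (1.10 and -2.01). Of 20 further interferon-induced genes outside the list 14 were lower and 2 higher in each table. Of these 20, 6 were detected on PC arrays alone (Ifi204, Ifi205, Isg20, Ube2l6, Trim30a and Oas1g) and 2 on glial arrays alone (Cxcl10 and Ccl5). Detection was by the signal table alone and fixed their direction there, and their value changes are a description too. Of the other 12, 8 were lower in the signal table and 9 in the value table. As a description, Trim30a was at least 6.678-fold lower and Isg20 at least 2.818-fold lower in the signal table, with -3.95 and -4.69 in the value table. Lgals3bp changed by -2.21 and -5.90 and Samd9l by -1.99 and -1.49. The chemokine Ccl5 was at least 2.172-fold higher, with 3.14 in the value table.

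Of 8 other class I pathway genes 4 were lower and 2 higher in the signal table, and 3 and 0 in the value table; Erap1, among the higher, was detected on glial arrays alone. H2-M3, a class I molecule for bacterial peptides, changed by -1.27 (value table -0.56, adjusted p = 0.0878) and Psme1, a proteasome activator subunit, by -0.88 and -0.67. Psme2, its partner, changed by -0.74 (value table -0.59, adjusted p = 0.0728) and the peptide-loading protein Pdia3 by -0.57 and -0.75. Of MHC class II, H2-DMa, which helps load peptides, was the only gene detected on both sides, and it rose by 0.79 and 1.89. H2-Aa and H2-Ab1, chains of a class II molecule, were tested only through glial arrays. The filter thus fixed their direction in the signal table, and their value changes are a description too. H2-Ab1 was at least 2.305-fold higher in the signal table (1.85 as fitted) and 5.04 higher on the log2 scale in the value table. Cd74, the class II invariant chain, and Ciita, the class II transactivator, were not detected under any heading.

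Markers of other cell types that express these genes were measured beside them, and their part in the results was not tested. Of 15 microglia and macrophage markers with a probe, Ptprc, Aif1, Itgam, Cx3cr1, Tyrobp, C1qa, C1qb, C1qc and Trem2 were not detected in any group. The summed level of that list was 549 to 589 in PC, 1076 to 1105 in OPC, 1363 to 1480 at passage 5, 306 to 309 at passage 15 and 754 to 794 at passage 25 on the linear signal scale. Cd14 was the only one of the 15 detected in OPC and at passages 5 and 25, none was at passage 15, and Cd14, Lyz1 and Lyz2 were in PC. The sum at passage 15 is thus background alone, and Cd14 is the only detected signal in the other glial sums. Of the 2 tested genes, Lyz1, detected on PC arrays alone, was at least 3.705-fold lower in the glial groups, and Cd14 went opposite ways (0.74 and -5.69). None of 4 T and B cell markers was detected. The endothelial list summed to 2527 to 2659 in PC and to 185 to 373 in the glial groups. Of its 3 tested genes Flt1 and Ly6c1 were lower in both tables, and Emcn, detected on PC arrays alone, was at least 23.23-fold lower, while Pecam1, Kdr, Tek, Esam and Tie1 were not detected in PC. In such bulk arrays fewer cells of a type and less RNA per cell cannot be told apart.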

How the data were processed

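Per the labels' protocols, total RNA was made into biotin-labelled cRNA for Illumina bead arrays. A kit with a further amplification round is named for sorted transplanted cells, and the labels do not say which arrays, if any, that concerns. Per the submitters' processing notes the tools were BeadStudio 3.2, lumi and RMA, roles unstated. The deposited signal table holds non-normalized intensity values and a deposited detection p-value per probe, per the file headers. The authors' value table holds normalized log2 values (median 3.29 in every column, range 0.519 to 14.4). Its slope on log2 signals was 0.986 over 1357 bright probes of the PC columns. Its background correction is not given in the sources used here.

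Background was removed with the 798 negative controls that the detection p-values imply (limma 3.58.1 in R 4.3.3, neqc, offset 16), and signals were then quantile-normalized as log2 values. The filter asked for 2 or more arrays with a detection p-value under 0.01, which kept 13680 probes with a symbol. The value table has no detection p-values, so those of the signal table served for both. The brightest probe per gene was used in both tables (2740 genes had several), which left 9778 genes. The platform annotation gave 23978 of 25697 probes 1 symbol, none several and 1719 no symbol; 23962 were named through current Entrez identifiers. Group means were fitted with lmFit and eBayes (5 residual degrees of freedom), with 13 contrasts. P-values were adjusted by the Benjamini-Hochberg method across genes, with calls made under 0.05. All tests are two-sided. The fit was tested on simulated data. An "at least" fold sets the bright mean against, per array, the higher of the lowest detected level (4.73 to 4.95) and the probe's own.

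Groups came from the sample titles. The listed genes, pathway lists and markers were chosen with earlier results of these data known. Every listed gene may be named; array values are given for up to 3 genes per role with the largest change of the glial groups against PC in the signal table and for genes called in opposite directions, and up to 4 genes of each other list were named, with all receptors. Alternatives were another background correction, scaling, filter, probe rule and variance model, a replicate block and leaving out arrays. Replicate numbers did not pair the arrays. The number of arrays limits the precision. Python 3.11.15 with matplotlib 3.10.9 drew the figures.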

Additional observations from a re-analysis of the deposited data

Results flagged for a closer look

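For 8 genes the change against PC was called in opposite directions at 2 passages of 1 table, and the change between those passages was called too (limma, adjusted over all genes). These were 7 of 31 in the signal table, where 15.5% of all genes did so, and 1 in the value table, where 0.286% did; 2 arrays stand behind each heading. In the signal table Ifit3 was lower than PC at passage 5 (-2.06) and passage 15 and higher at passage 25 (0.70), so that passage 25 stood 2.76 above passage 5 (adjusted p = 5.62e-09). Ifit3 was not detected at passage 15, where it was at least 11.5-fold lower than in PC and at least 18.7-fold lower than at passage 25 (4.45 as fitted, adjusted p = 3.44e-11). Ifitm2 was higher than PC at passages 5 (0.70) and 25 (0.50) and lower at passage 15 (-3.73), with differences of -4.43 between passages 5 and 15 (adjusted p = 1.1e-11) and 4.23 between passages 15 and 25 (adjusted p = 1.08e-11). H2-T23 showed the same order, with differences of -3.20 (adjusted p = 6.68e-10) and 3.22 (adjusted p = 5.17e-10), as did Tap2, with -2.38 (adjusted p = 1.61e-08) and 2.44 (adjusted p = 1.06e-08). H2-K1 was higher than PC at passage 25 (1.19) and not detected at passage 15, where it was at least 1.769-fold lower than in PC and at least 4.04-fold lower than at passage 25 (2.27 as fitted, adjusted p = 3.32e-07). Psmb9 was higher at passage 5 (0.59) and lower at passage 15 (-0.62), a difference of -1.21 (adjusted p = 5.68e-06). Psmb10 was lower at passages 5 (-0.23) and 15 (-0.88) and higher at passage 25 (0.43), with differences of 0.66 (adjusted p = 0.000145) and 1.31 (adjusted p = 3.78e-07). In the value table only H2-D1 did so, higher than PC at passage 5 (1.37) and lower at passage 15 (-1.18), a difference of -2.54 (adjusted p = 0.00442). The signal columns headed passage 15 are those that matched the value columns headed OPC, and which heading is right was not tested.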

How the results depend on the processing

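The count of listed genes lower in the glial groups than in PC stayed within 1.5 times of its value under every alternative run in either table; leaving out 1 array at a time gave 21 to 23 in the signal table and 19 to 23 in the value table, with 3 to 3 and 3 to 4 higher. Over all genes those ranges were 3046 to 3365 lower and 3692 to 4102 higher, and 1973 to 2996 and 2480 to 3673. The arrays headed passage 15 decided several signal counts. Without both of them 6 genes were higher in the glial groups and 7 in iOPC than in PC, iOPC had 19 genes above OPC and 1 below it, and the F test called 19. Ifitm2 and H2-T23 then reversed to 0.67 and 0.61 in the glial groups and to 0.60 and 0.53 in iOPC against PC, and Psmb10 to 0.10; against OPC Ddx58 (0.38), Irf9 (0.45), Ifi35 (0.69), B2m (0.08), H2-K1 (0.60) and Tap2 (0.41) reversed. With the value table in place of the signals, counts were 6 higher in iOPC and 1 higher in OPC than in PC, 23 above and 1 below OPC in iOPC, 0 higher at passage 25 than at 5 and 10 by the F test, and Gbp3 (-1.98) and Psmb10 (0.01) reversed. The mean of all probes turned Irf9 in iOPC against OPC to 0.03. Median scaling, which moves the median of all genes from 0.08 to 0 and the share of higher calls from 54.9% to 49.3%, turned Eif2ak2 (-0.05), Irf9 (-0.09) and Ifi35 (-0.08) between passages 5 and 25. In the value table passage 25 had 4 genes lower than passage 5 with no filter on detection and 5 without both OPC arrays, the F test called 4 with no filter and 6 without both passage 15 arrays, and Bst2 rose by 0.83 in the glial groups without both OPC arrays. The cause was not tested for any of these. Leaving out 1 array gave, in the signal table, 21 to 24 lower and 3 to 3 higher in iOPC and 22 to 22 and 3 to 5 in OPC than in PC, 8 to 10 below and 7 to 10 above OPC in iOPC, 3 to 5 lower and 10 to 15 higher at passage 25 than at 5, and 29 to 29 by the F test. In the value table it gave 16 to 21 and 4 to 7, 24 to 26 and 1 to 1, 1 to 2 and 19 to 23, 1 to 11 and 0 to 1, and 4 to 15. With the replicate number as a block 23 genes were lower and 3 higher in the signal table and 23 and 4 in the value table, and no other count left the range of 1.5 times; deviations of same-numbered arrays correlated between -0.048 and 0.127, and between -0.082 and 0.096, over 10 pairs of groups. With no filter all 39 genes were fitted, and 27 and 22 were lower in the glial groups. Restricted to genes detected on both PC and glial arrays, an alternative chosen after seeing the data, 21 genes were lower and 3 higher in the signal table and 20 and 4 in the value table. Signal near background limits the levels of Irf7, Ifitm1, Dhx58, Oasl2 and Rsad2, and of Mx2 in PC. At passage 15 it also limits those of Usp18, Trim25, Ifit3, Gbp2, Ifi35, H2-K1 and Tapbp.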
